A study of Mus musculus with 30 samples.

Results

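The 38 genes described here are expressed by microglia, the resident macrophages of the retina, and by other macrophages. They were chosen by name, as a list of microglia and macrophage genes, with earlier results of these data known. All 38 are among the 38720 gene symbols listed in both deposited comparisons. Poly(A) RNA was sequenced from retinas of newborn mice (postnatal day 0) that were digested with papain and split by magnetic selection for CD90 (the product of Thy1) into retinal ganglion cells (RGCs), the neurons that send axons to the brain, and the remaining cells, labelled non-RGC. The values here come from 9 libraries in 3 groups. The mutant non-RGC cells and the mutant RGCs, 3 libraries each, carry Math5Cre, a Cre recombinase under control of the Math5 (Atoh7) gene that acts in the ganglion cell lineage. The labels hold 2 mutant genotypes, a dKO with Ezh2f/f and 1 floxed copy of G9a (G9af/+) and an sKO with Ezh2f/f alone, and the deposited tables do not say which was used. The 3 WT RGC libraries are from mice labelled C57BL/6. Ezh2 methylates histone H3 at lysine 27 and G9a, encoded by Ehmt2, at lysine 9. Cre driven by Math5 is not meant to act in microglia, which arise outside the neural retina. WT non-RGC libraries are not analysed here.

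Microglia enter the retina from the blood-forming lineage before birth and depend on signals through the CSF1 receptor. Their receptors sense chemokines, nucleotides and lipids on neighbouring neurons, and in the developing retina they engulf dying cells and remove synapses marked by complement. Macrophages of the meninges and vessel walls share many of these genes but differ in others, such as Mrc1 and Pf4.

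The transcription factor PU.1, encoded by Spi1, binds purine-rich sites in many genes of this lineage. Its core GAGGAA, searched on both strands (reverse complement TTCCTC), was present within 250 bases upstream of the start in 17 of 38 RefSeq promoters of the members on GRCm38.p6 (44.7%), against 7639 of 32851 RefSeq promoters of all genes (23.3%). RefSeq promoters were at hand for 31 members, of which 16 held the core. The share is a description of letters and does not show binding. The 150 bases upstream of the start are shown for 4 members, a complement gene, a purine receptor, a lipid receptor and an integrin, because all 4 were under 3% of their mutant RGC level in non-RGC cells and hold the core close to the start. They lie at chr4:136886201-136886350 (C1qb, minus strand), chr3:59210883-59211032 (P2ry13, minus strand), chr17:48346251-48346400 (Trem2, plus strand) and chr7:128062490-128062639 (Itgam, plus strand), each printed 5′ to 3′ along the gene's strand with the core in capitals.
C1qb: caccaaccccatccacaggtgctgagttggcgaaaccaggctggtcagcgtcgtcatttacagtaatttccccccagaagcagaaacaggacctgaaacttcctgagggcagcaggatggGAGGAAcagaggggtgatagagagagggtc
P2ry13: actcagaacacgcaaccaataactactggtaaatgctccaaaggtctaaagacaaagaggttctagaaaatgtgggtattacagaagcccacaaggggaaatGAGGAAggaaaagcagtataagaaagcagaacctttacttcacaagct
Trem2: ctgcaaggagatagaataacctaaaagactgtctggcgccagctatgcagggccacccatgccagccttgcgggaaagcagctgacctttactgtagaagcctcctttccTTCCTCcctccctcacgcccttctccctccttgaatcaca
Itgam: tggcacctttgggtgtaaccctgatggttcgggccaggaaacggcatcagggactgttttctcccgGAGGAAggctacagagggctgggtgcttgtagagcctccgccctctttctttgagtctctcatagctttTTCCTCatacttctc
Itgam held the core 2 times, 1 time on each strand, and the other 3 promoters held it 1 time in this window. The promoters of Cx3cr1 and P2ry12 held none in their 250 bases.

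The libraries held between 10551825 and 12259494 reads assigned to genes, and the 3 groups had similar depth. Values are normalised counts, which are reads divided by a factor for each library, and the numbers 1 to 3 follow falling size factor within each group, since the tables do not tie libraries to single samples. No source says that the 3 libraries per group are separate animals; a p-value therefore reflects library-to-library spread, which may be technical. Mutant RGC library 1 stood apart from libraries 2 and 3 of its group. Its summed level over 18 ganglion cell markers was the lowest of the 6 RGC libraries (21999, against 33999 and 33913 in mutant RGC libraries 2 and 3), and its summed level over the 38 microglia and macrophage genes was the highest of all 9. The member counts and median log2 fold changes of each comparison are therefore given with and without it. Values for single genes, fold differences, levels kept and marker lists include it unless stated. Because it was the highest mutant RGC library in all 38 members, their fold differences between fractions would be smaller without it. The 95% counting intervals given with fold differences cover counting error only and leave out the spread between libraries. Ezh2 was not lower in mutant RGCs: it had 1962, 1863 and 1812 normalised counts, against 1154, 1169 and 1576 in WT RGCs. Ehmt2 was lower, with 2364, 2799 and 2962 in mutant RGCs, against 3743, 3603 and 3857 in WT RGCs. The deleted exons are not given, so these whole-gene values do not check the deletion.

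The first comparison asks where the genes were read, in the cells left behind by the beads or in those held by them. The microglia and macrophage genes were lower in mutant non-RGC cells than in mutant RGCs: 34 of 38 passed the test, all lower, and none was higher. Over all 15107 genes tested 17.8% were called, 12.4% lower and 5.36% higher (limma with a variance trend on log2(normalised count + 1), Benjamini-Hochberg adjusted p under 0.05). No member was higher at an unadjusted p under 0.05 either, nor with voom weights. The voom fit called 13 members, all lower (C1qa, C1qb, C1qc, P2ry13, Tyrobp, Trem2, Ctss, Cd53, Ly86, Cd14, Fcgr3, Coro1a and Vav1), and every other call between fractions given below for a member was lost with it. With voom weights 15.3% of all genes were called, 10.6% lower. The median log2 fold change of the 38 members was -4.73, against 0.014 over all genes tested. In 36 of 38 members every non-RGC library lay below every mutant RGC library, which held for 21.0% of all genes tested. The median member kept 2.18% of its mutant RGC level in the non-RGC fraction, and 24 of 38 kept less than 5%. Fewer cells of a type and less RNA per cell cannot be told apart in these bulk samples. All 38 members passed the filter of a mean of at least 10 normalised counts over the 6 libraries, many of them only through their level in mutant RGCs.

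**Figure D1:**
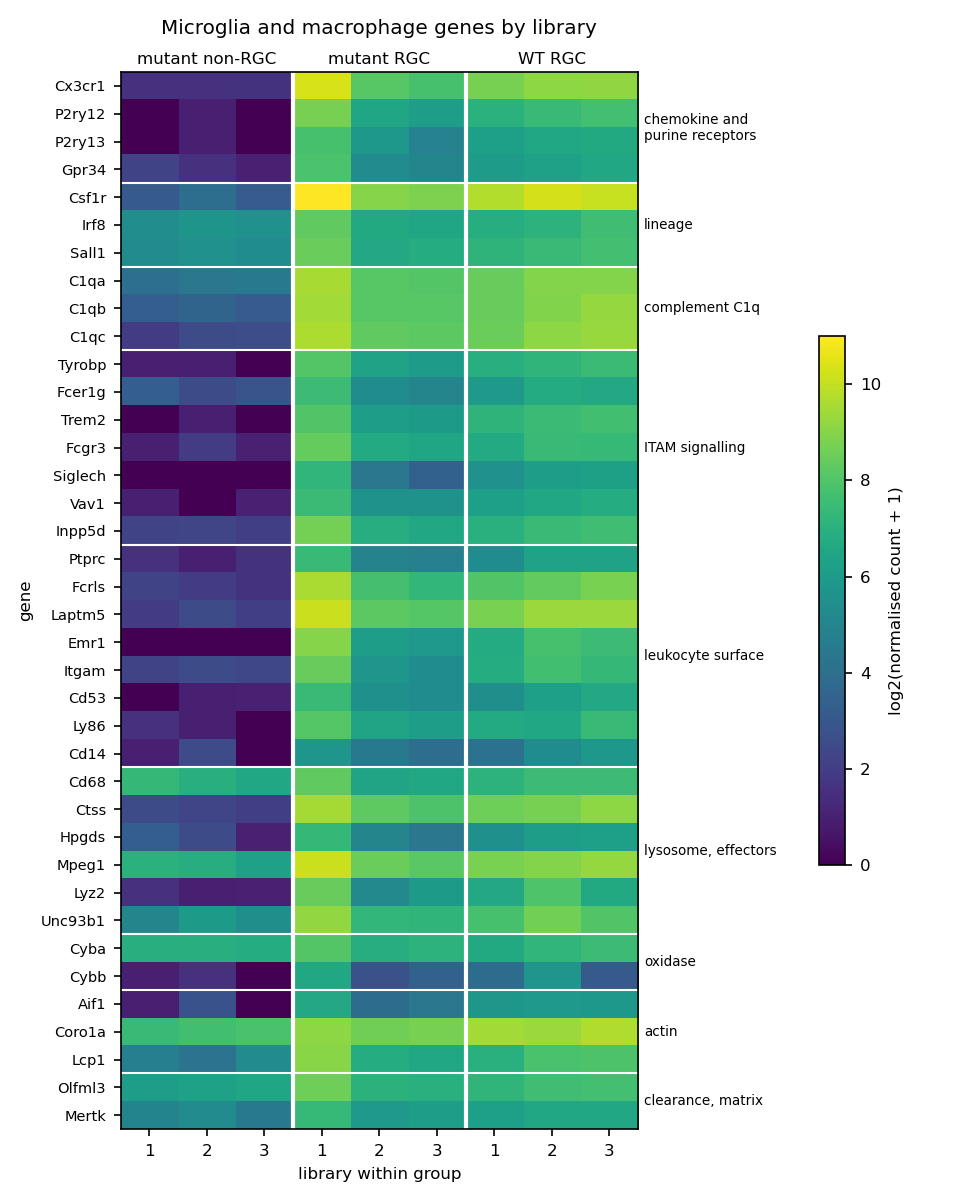
Heat map of the 38 genes (vertical axis, grouped by role) in the 9 libraries (horizontal axis, 3 each of mutant non-RGC, mutant RGC and WT RGC), coloured by log2(normalised count + 1). Most genes are near 0 in the 3 non-RGC libraries, and mutant RGC library 1 is the brightest column for 36 of the 38.

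All 4 receptors for chemokines, nucleotides and lysophospholipids were lower in non-RGC cells, by log2 fold changes from -7.19 to -4.45. Cx3cr1, the receptor for the neuronal chemokine fractalkine (chromosome 9, 120048683 to 120068296 on GRCm38), had 1.92, 1.94 and 2.06 in mutant non-RGC cells, 1282, 285 and 222 in mutant RGCs and 424, 558 and 579.7 in WT RGCs normalised counts. All RGC libraries were above 200 and all non-RGC libraries close to 2 (non-RGC against RGC in mutants, limma: log2 fold change -7.19, SE 0.62, adjusted p = 0.00448), and its level was 306-fold lower (95% counting interval 140.4 to 836). P2ry12, the ADP receptor that steers microglial processes towards injury, had 0, 0.968 and 0 in mutant non-RGC cells, 433, 88.7 and 69.1 in mutant RGCs and 129.7, 174 and 210.4 in WT RGCs. A single read among the 3 non-RGC libraries stands for that level, which was 607-fold lower (95% counting interval 109 to 24020.0) and called lower (log2 fold change -6.80, SE 0.73, adjusted p = 0.0054, limma). P2ry13, a second ADP receptor, likewise had 1 read among the non-RGC libraries, against 331 among the mutant RGC libraries, a level 317-fold lower (95% counting interval 56.5 to 12560.0). Gpr34, a receptor for lysophosphatidylserine, kept 2.25% of its mutant RGC level. P2ry12 and P2ry13 lie inside Med12l and Gpr34 inside Cask in RefSeq, and the strand setting of the counting is not given, so reads of host genes may be mixed in.

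All 3 lineage genes were lower in non-RGC cells, which kept between 1.03% and 27.03% of their mutant RGC levels. Csf1r, the receptor for CSF1 and interleukin 34 on which microglia depend, had 7.70, 14.5 and 8.23 in mutant non-RGC cells, 2003, 507 and 456 in mutant RGCs and 850.1, 1246 and 1065 in WT RGCs normalised counts. The groups of mutant cells did not overlap, and Csf1r was 98.1-fold lower (95% counting interval 69.0 to 145) in non-RGC cells (log2 fold change -6.17, SE 0.56, adjusted p = 0.00448, limma). Sall1, a transcription factor of microglial identity that other developing tissues also use, had 38.5, 46.5 and 40.1 in mutant non-RGC cells, 357, 98.0 and 110.0 in mutant RGCs and 142, 171 and 207 in WT RGCs. Non-RGC libraries were lower without overlap but kept 22.1% of the mutant RGC level (log2 fold change -1.89, SE 0.47, adjusted p = 0.0335, limma). Irf8, a transcription factor of macrophage development, kept 27.03% and passed narrowly (log2 fold change -1.62, SE 0.46, adjusted p = 0.0491, limma), and it no longer passed with total-count or upper-quartile scaling, without the filter or with a pseudocount of 5.

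The 3 chains of C1q, the protein that starts the classical complement pathway, lie next to each other on chromosome 4 and were all lower in non-RGC cells. C1qa had 15.4, 19.4 and 20.6 in mutant non-RGC cells, 762, 278 and 266 in mutant RGCs and 349.9, 502 and 499.7 in WT RGCs normalised counts. Its non-RGC level was 23.8-fold lower (95% counting interval 18.2 to 31.7) (log2 fold change -4.31, SE 0.40, adjusted p = 0.00463, limma). C1qb (log2 fold change -5.24, SE 0.38, adjusted p = 0.00377, limma) kept 2.16% of its mutant RGC level and C1qc (log2 fold change -6.36, SE 0.41, adjusted p = 0.00337, limma) kept 0.909%. The chains kept almost the same proportion in every RGC library: the ratio of C1qa to C1qb was 1.07, 1.00 and 0.941 in mutant RGCs and 1.01, 1.03 and 0.820 in WT RGCs.

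All 7 genes of signalling through immunoreceptor tyrosine motifs were lower in non-RGC cells. Trem2, a lipid receptor, had 0, 0.968 and 0 in mutant non-RGC cells, 257, 70.0 and 63.3 in mutant RGCs and 139.6, 179 and 205 in WT RGCs normalised counts. Its adaptor Tyrobp had 0.962, 0.968 and 0 in mutant non-RGC cells, 268, 79.3 and 65.2 in mutant RGCs and 122, 145 and 178 in WT RGCs. Both groups of RGC libraries were far above the 1 and 2 reads that Trem2 and Tyrobp had among all non-RGC libraries, and the levels were 400.2-fold lower (95% counting interval 71.4 to 15850.0) for Trem2 and 212-fold lower (95% counting interval 58.2 to 1753) for Tyrobp. Siglech, a lectin that signals through Tyrobp, had no read in any non-RGC library, against 151, 19.6 and 9.73 in mutant RGCs, which with a limit of 3 reads over the group is at least 61.9-fold lower. Fcgr3, a receptor for immunoglobulin G, had 0.962, 2.91 and 1.03 in mutant non-RGC cells, 341, 104 and 88.6 in mutant RGCs and 104, 176 and 163 in WT RGCs, so that non-RGC libraries held 3 normalised counts or fewer. Downstream, the lipid phosphatase Inpp5d, an inhibitor of these signals, had 3.85, 3.87 and 3.09 in mutant non-RGC cells, 409.9, 114 and 96.4 in mutant RGCs and 124, 173 and 195 in WT RGCs. Vav1, a signalling protein of blood cells, had 2 reads among the non-RGC libraries, against 300 among the mutant RGC libraries, a level 144-fold lower (95% counting interval 39.4 to 1191). Fcer1g, the shared chain of Fc receptors, kept 7.73% of its mutant RGC level. The 7 genes of this role had log2 fold changes between -6.40 and -3.08.

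The leukocyte surface genes were all lower in the non-RGC fraction, 8 of 8. Ptprc, the pan-leukocyte phosphatase CD45, had 1.92, 0.968 and 2.06 in mutant non-RGC cells, 169, 28.9 and 26.3 in mutant RGCs and 40.3, 80.0 and 81.1 in WT RGCs normalised counts. Itgam, the integrin chain CD11b, had 3.85, 4.84 and 4.11 in mutant non-RGC cells, 343, 53.2 and 39.9 in mutant RGCs and 110.1, 202 and 160.0 in WT RGCs. In both genes every mutant RGC library was above every non-RGC library (Ptprc log2 fold change -4.32, SE 0.73, adjusted p = 0.0119, Itgam log2 fold change -4.12, SE 0.76, adjusted p = 0.0142, limma). Emr1 (Adgre1 in RefSeq), which encodes the macrophage antigen F4/80, had no read in any non-RGC library, against 515, 70.9 and 59.4 in mutant RGCs, at least 221.5-fold lower. The Fc receptor-like Fcrls (-6.26), the membrane protein Laptm5 (-6.64), the tetraspanin Cd53 (-5.44), Ly86, the partner of the Toll-like protein RP105 (-6.04), and the lipopolysaccharide co-receptor Cd14 (-3.55) completed this role, each with its log2 fold change in brackets. Cd53 had 2 reads and Ly86 3 reads among the non-RGC libraries, levels 133-fold lower (95% counting interval 36.5 to 1104) and 145-fold lower (95% counting interval 49.2 to 704).

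Of 6 lysosomal and effector genes 5 were lower in non-RGC cells, and the shares kept ranged from 0.878% to 74.3%. Ctss, the protease cathepsin S, kept 0.921% of its mutant RGC level and Lyz2, the lysozyme of macrophages, 0.878%. Hpgds, a prostaglandin synthase, kept 7%, Unc93b1, which carries Toll-like receptors to endosomes, 15.2%, and Mpeg1, a pore-forming protein of phagosomes, 18.2%. Unc93b1 had 31.7, 62.0 and 43.2 in mutant non-RGC cells, 601, 153 and 147 in mutant RGCs and 222, 398 and 259.7 in WT RGCs normalised counts, with no overlap between the mutant fractions (log2 fold change -2.41, SE 0.55, adjusted p = 0.0258, limma). Cd68, a glycoprotein of macrophage lysosomes that is often used as a marker, had 158, 120.1 and 94.6 in mutant non-RGC cells, 319, 85.9 and 96.4 in mutant RGCs and 137, 187 and 183 in WT RGCs; this gene was singled out after its values were seen. Its non-RGC and mutant RGC libraries overlapped, with 74.3% of the level kept, and it did not pass the test (log2 fold change -0.19, SE 0.49, adjusted p = 0.832, limma). Without mutant RGC library 1 its log2 fold change was 0.41. Lyz2 has a near-identical copy, Lyz1, so its counts are uncertain.

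The 2 phagocyte oxidase chains did not pass. Cyba, the small membrane chain that other cell types also make, had 116, 117 and 111 in mutant non-RGC cells, 263, 116 and 135 in mutant RGCs and 100.2, 152 and 184 in WT RGCs normalised counts, and the mutant fractions overlapped (log2 fold change -0.48, SE 0.29, adjusted p = 0.314, limma). Cybb, the large catalytic chain, had 0.962, 1.94 and 0 in mutant non-RGC cells, 93.5, 5.60 and 9.73 in mutant RGCs and 13.8, 51.6 and 7.67 in WT RGCs. All 3 non-RGC libraries were under 2 and every mutant RGC library above 5, but the spread between the mutant RGC libraries was wide (log2 fold change -3.39, SE 1.03, adjusted p = 0.0632, limma). Its 3 non-RGC reads give a level 37.3-fold lower (95% counting interval 12.5 to 184).

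Of the actin regulators, Aif1, which encodes the microglial marker IBA1, had 0.962, 5.81 and 0 in mutant non-RGC cells, 99.9, 14.0 and 19.5 in mutant RGCs and 55.0, 58.9 and 58.1 in WT RGCs normalised counts and was lower in non-RGC cells (log2 fold change -3.73, SE 0.95, adjusted p = 0.0367, limma). Lcp1, an actin-bundling protein of leukocytes, kept 11.3% of its mutant RGC level. Coro1a, which binds actin in leukocytes and neurons, had 175, 201 and 228 in mutant non-RGC cells, 562, 397 and 425 in mutant RGCs and 708, 649 and 834 in WT RGCs. Its 3 groups were separate from each other, lowest in non-RGC cells and highest in WT RGCs, and non-RGC cells kept 43.7% of the mutant RGC level (log2 fold change -1.18, SE 0.16, adjusted p = 0.00759, limma). The clearance receptor Mertk, also made by pigment epithelium, had 29.8, 38.7 and 20.6 in mutant non-RGC cells, 163, 59.7 and 70.1 in mutant RGCs and 72.7, 92.6 and 92.0 in WT RGCs and passed (log2 fold change -1.58, SE 0.42, adjusted p = 0.0421, limma). Olfml3, a secreted matrix protein, had 70.2, 76.5 and 88.4 in mutant non-RGC cells, 384, 134 and 127 in mutant RGCs and 145, 196 and 211 in WT RGCs; its mutant fractions did not overlap, but the difference missed the threshold (log2 fold change -1.25, SE 0.41, adjusted p = 0.0781, limma).

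**Figure D2:**
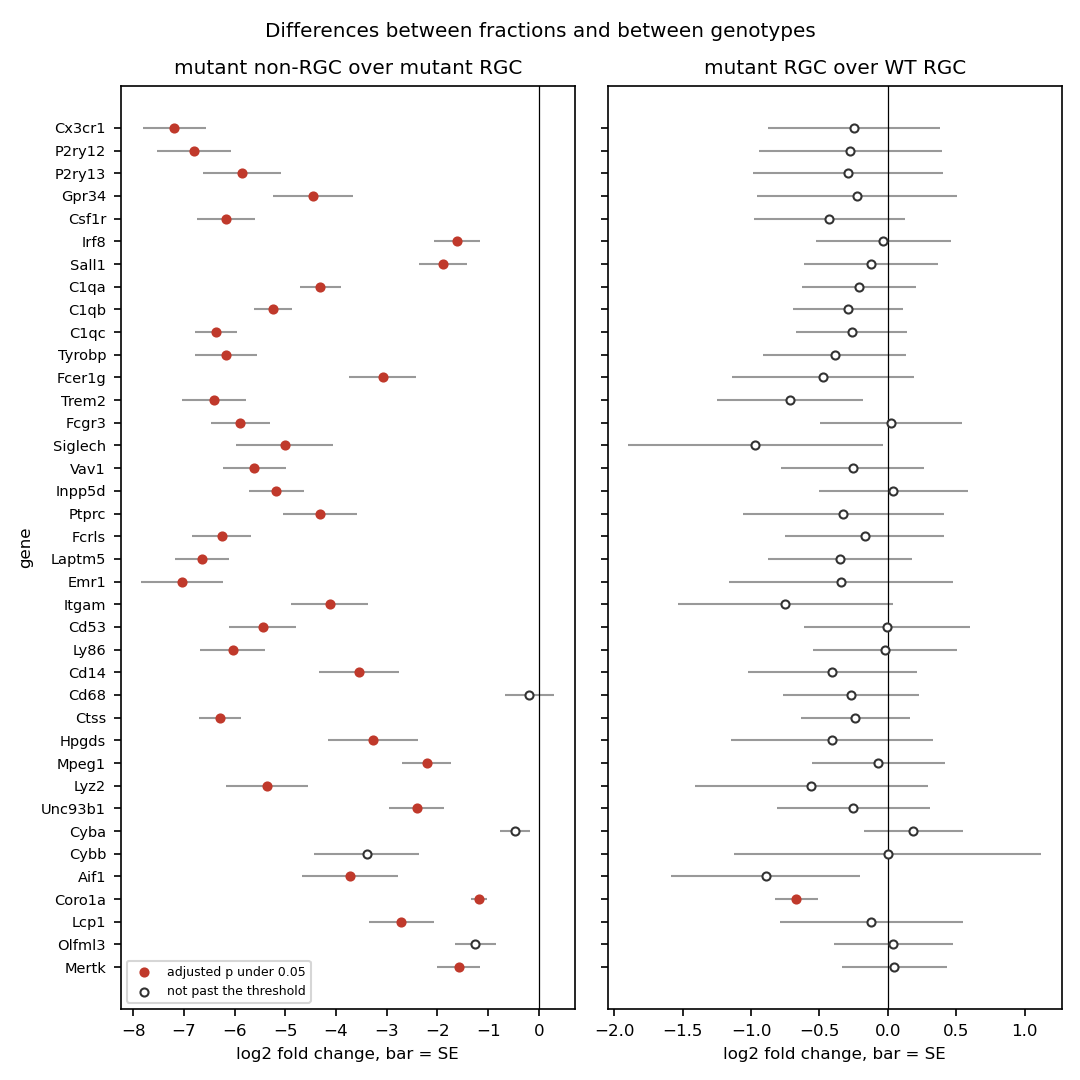
Log2 fold change (horizontal axis, bars are SE) of each of the 38 genes (vertical axis) for mutant non-RGC over mutant RGC (left) and mutant RGC over WT RGC (right). Filled red points passed an adjusted p under 0.05: 34 genes on the left, all below 0, and Coro1a alone on the right, where the other points scatter between -0.97 and 0.18.

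Without mutant RGC library 1, most members were still lower in non-RGC cells, by smaller differences. C1qa, for example, had a log2 fold change of -3.82, against -4.31 with that library. Of the 34 members that still passed the filter (Aif1, Cd14, Siglech and Cybb no longer did), 31 were called lower and none higher, at a median log2 value of -4.47, while 22.3% of all genes were called, 15.2% lower and 7.1% higher. No member was higher at an unadjusted p under 0.05 there. Cd68, Hpgds and Cyba were not called. The median of -4.47 is over 34 members, so it is not like for like with the -4.73 over all 38. The number of members called moved between 20 (without non-RGC library 1) and 31 with any single library left out. It was 23 without mutant RGC library 2, where the spread between mutant RGC libraries was estimated from 2 libraries. Calls over all genes fell too, to 3.42% without non-RGC library 1 and 4.52% without mutant RGC library 2. At its own threshold, the authors' deposited table called 19 of the 38 (adjusted p under 0.05), against 6.47% of its genes.

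CD90 selection itself was checked with the marker lists. Thy1 had 209, 351 and 10.3 normalised counts in mutant non-RGC cells and 964, 1501 and 1425 in mutant RGCs, 14.6% of the level kept, and did not pass (log2 fold change -3.76, SE 1.16, adjusted p = 0.0654, limma). Of 18 ganglion cell markers 11 were lower in non-RGC cells, against 12.4% of all genes tested, at a median log2 value of -1.82. None was higher, at an unadjusted p under 0.05 either. For comparison, the non-RGC fraction kept 0.331% of the mutant RGC level of Cx3cr1, 1.03% of that of Csf1r and 0.164% of that of P2ry12. The difference from Thy1 was not tested. These shares include mutant RGC library 1, the lowest of its group for Thy1 and the highest for the other genes. Non-RGC library 3 was the lowest of its group for Thy1, and also for the ganglion cell marker Pou4f1 (521, 849 and 42.2 in mutant non-RGC cells).

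The second comparison asks whether the genes differed between mutant RGCs and WT RGCs. Of the 38 genes 1 passed the test, Coro1a, which was lower in mutant RGCs; none was higher, and 37 did not pass. Over all 15273 genes tested 28.2% were called, 16.4% lower and 11.7% higher; the members' 1 of 38 was not tested against that share. No member was higher at an unadjusted p under 0.05 or with voom weights. The median log2 fold change of the 38 was -0.26, against -0.03 over all genes tested, with 33 negative and 5 positive values from -0.97 (Siglech) to 0.18 (Cyba). The groups did not overlap in 1 member, Coro1a, against 51.9% of all genes tested. The median SE of the members was 0.55, against 0.14 over all genes tested.

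Coro1a had 562, 397 and 425 normalised counts in mutant RGCs and 708, 649 and 834 in WT RGCs, all mutant libraries below all WT libraries (log2 fold change -0.67, SE 0.16, adjusted p = 0.0304, limma). The authors' deposited table gave it an adjusted p of 0.00684, the only member under 0.05 there, against 11.9% of its genes. It was also the member in which mutant RGC library 1 exceeded the next highest mutant RGC library least, 1.32-fold, and the only 1 of the 38 in which that library lay below every WT library. Neurons also express Coro1a, and 15 of 18 ganglion cell markers were lower in mutant RGCs (median log2 fold change -0.76). The part of the ganglion cell markers in the Coro1a result was not tested.

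In most other members the 3 mutant RGC libraries lay on both sides of WT. Mutant RGC library 1 was the highest of its group in 38 of 38 members, against 43.4% of all genes tested in either comparison, and the highest of all 9 libraries in 36 of 38, against 12.5%. Mutant RGC libraries 2 and 3 were both below all WT libraries in 34 of 38 members, against 34.2% of all genes. All WT libraries lay between them and mutant RGC library 1 in 33 of 38, against 2.95%. The excess of library 1 over the next highest mutant RGC library had a median of 3.66-fold and reached 9.6-fold in Cybb. Among WT RGCs the spread was smaller, with a median ratio of the highest to the lowest library of 1.61. WT library 1 was the lowest of the 3 in 35 of 38 members, against 28.3% of all genes.

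**Figure D3:**
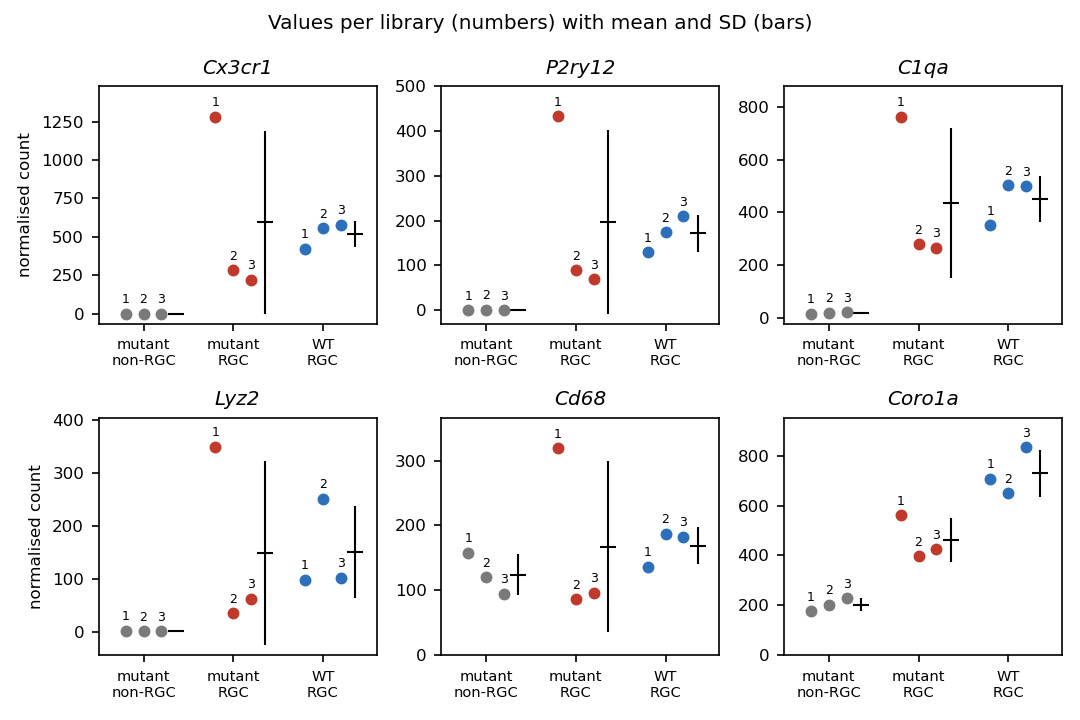
Normalised counts (vertical axes, each starting at or just below 0) of 6 genes in mutant non-RGC, mutant RGC and WT RGC libraries (horizontal axes); numbered points are libraries, black bars the mean and SD of 3. in Cx3cr1, P2ry12 and C1qa all WT libraries lie between mutant RGC library 1 and mutant RGC libraries 2 and 3, Lyz2 has a high WT library 2, Cd68 overlaps between mutant non-RGC cells and mutant RGCs, and Coro1a steps up from non-RGC to WT RGC.

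Leaving out single libraries changed the calls between genotypes. Without mutant RGC library 1, 13 of 38 members were called lower and none higher, with all 38 values negative from -2.09 (Siglech) to -0.17 (Cyba) and a median of -0.91; 16.0% of all genes were then called, 10.3% lower and 5.74% higher. The 13 were Cx3cr1, Aif1, Csf1r, P2ry12, Tyrobp, Trem2, Cd68, Laptm5, Emr1, Itgam, Siglech, Gpr34 and Coro1a. Cx3cr1 (log2 fold change -1.03, SE 0.18, adjusted p = 0.0366), Csf1r (log2 fold change -1.11, SE 0.17, adjusted p = 0.0334), Trem2 (log2 fold change -1.36, SE 0.21, adjusted p = 0.0334) and Aif1 (log2 fold change -1.74, SE 0.24, adjusted p = 0.033) are examples (limma, 2 mutant and 3 WT libraries). None was higher at an unadjusted p under 0.05. Without mutant RGC library 2 or 3 the median was 0.056 or 0.13 and no member was called, and without WT library 1 or 2 none was called either (limma); 1 member, Coro1a, passed an unadjusted p under 0.05 in each of these 4 fits. In these 4 settings between 3 and 8 of all genes were called, so the lost call of Coro1a is shared with nearly all genes. Csf1r, Aif1, Trem2, Itgam and Tyrobp kept negative values with each library left out, while the median of the 38 was above 0 only without mutant RGC library 2 or 3. Which members were called, Coro1a included, depended on the library left out.

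Relative to WT RGCs, the log2 fold changes in mutant RGCs were -0.25 for Cx3cr1, -0.27 for P2ry12, -0.43 for Csf1r, -0.21 for C1qa, -0.71 for Trem2, -0.39 for Tyrobp, -0.75 for Itgam, -0.33 for Ptprc and -0.89 for Aif1, and none passed (limma, adjusted p from 0.336 for Trem2 to 0.786 for Cx3cr1). The 5 genes with positive values were Cyba (log2 fold change 0.18, SE 0.36, adjusted p = 0.725), Mertk (0.046), Olfml3 (0.04), Inpp5d (0.038) and Fcgr3 (0.022), and none passed. Their mutant RGC libraries 2 and 3 were not above the WT mean, and all 5 values were negative without mutant RGC library 1.

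Ratios between members differed in how far they varied across the RGC libraries. The ratio of Cx3cr1 to Csf1r was 0.640, 0.562 and 0.487 in mutant RGCs and 0.498, 0.448 and 0.544 in WT RGCs. That of the summed C1q chains to Cx3cr1 was 1.77, 3.08 and 3.82 in mutant RGCs and 2.52, 2.78 and 3.01 in WT RGCs, lowest in mutant RGC library 1. Siglech to Csf1r was 0.0753, 0.0387 and 0.0214 in mutant RGCs and 0.0543, 0.0557 and 0.0700 in WT RGCs. Itgam to Csf1r was 0.171, 0.105 and 0.0876 in mutant RGCs and 0.130, 0.162 and 0.150 in WT RGCs. For both ratios mutant RGC library 1 was the highest of its group and libraries 2 and 3 were below every WT library. Siglech had only 9.73 normalised counts in mutant RGC library 3, so its ratio there is uncertain.

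Lyz2 and Cybb had a high WT RGC library 2, and both were singled out after their values were seen. Lyz2 had 349, 35.5 and 62.3 normalised counts in mutant RGCs and 98.3, 252 and 102 in WT RGCs. In Lyz2 and in Cybb, mutant RGC library 1 and WT RGC library 2 were the highest libraries of their groups by a wide margin. The 12 markers of border-associated macrophages, the macrophages of vessels and meninges, were likewise highest in these libraries of each group. Their summed level was 139, 159.8 and 81 in mutant non-RGC cells, 6019, 277 and 607 in mutant RGCs and 486, 3075 and 443 in WT RGCs. The mannose receptor Mrc1 had 2.89, 7.75 and 0 in mutant non-RGC cells, 1046, 24.3 and 93.4 in mutant RGCs and 58.0, 661 and 30.7 in WT RGCs. Mrc1, Cd163, Pf4 and F13a1, 4 of 9 tested, were lower in non-RGC cells (Pf4 log2 fold change -5.55, SE 1.01, adjusted p = 0.0136, limma), against 12.4% of all genes tested. None was called with voom weights. None of the 9 differed between mutant RGCs and WT RGCs, at an unadjusted p under 0.05 either.

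**Figure D4:**
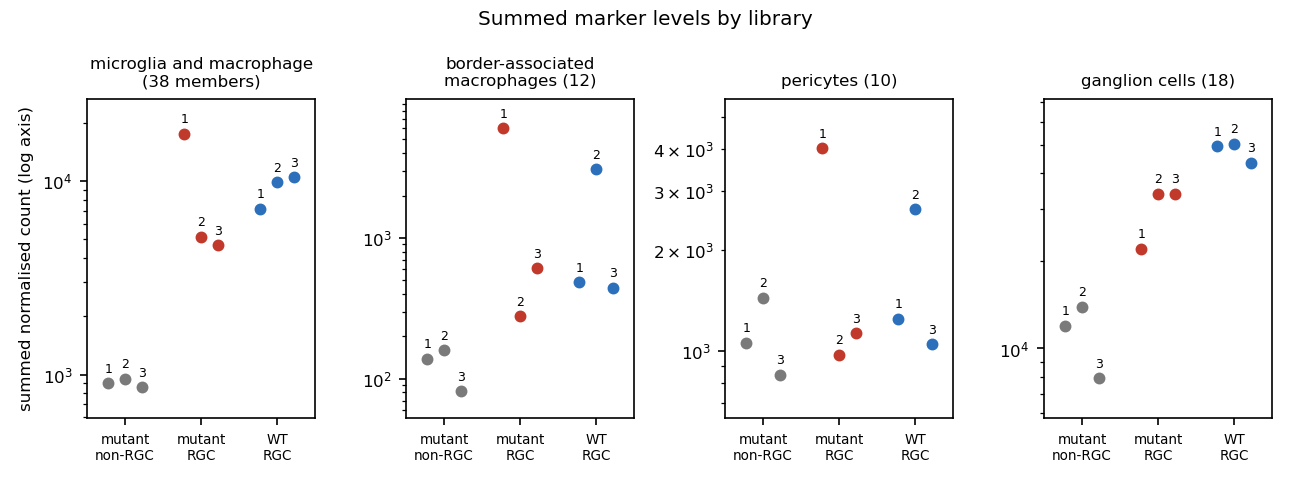
Summed normalised counts (vertical log axes) of the 38 microglia and macrophage genes, 12 border-associated macrophage markers, 10 pericyte markers and 18 ganglion cell markers in the 9 libraries (numbered points; mutant non-RGC, mutant RGC, WT RGC from left to right). Mutant RGC library 1 is the highest library in the first 3 panels and the lowest RGC library in the last; WT RGC library 2 is high for border-associated macrophages and pericytes.

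Markers of other cells moved with the same libraries. The 38 members summed to 903, 951 and 863 in mutant non-RGC cells, 17652, 5164 and 4675 in mutant RGCs and 7195, 9899 and 10498 in WT RGCs. The 10 pericyte markers summed to 1057, 1443 and 851 in mutant non-RGC cells, 4019.5, 974 and 1130.1 in mutant RGCs and 1247, 2652 and 1048 in WT RGCs, and none of the 10 passed in either comparison. The 16 endothelial markers summed to 6078, 6334 and 6901 in mutant non-RGC cells, 8768, 5365 and 5630.1 in mutant RGCs and 3789.6, 4713 and 5169 in WT RGCs. Most of the endothelial sum was Kdr, a receptor for VEGF that developing retinal cells also make, with 5352, 5221 and 6122 in mutant non-RGC cells, 5719, 4663 and 4736 in mutant RGCs and 3152, 3329 and 4299.8 in WT RGCs; it was the 1 endothelial marker called between genotypes, higher in mutant RGCs (log2 fold change 0.49, SE 0.14, adjusted p = 0.043, limma), and none was called without mutant RGC library 1. Non-RGC cells kept 25.0% of the mutant RGC level of Pecam1 and 19.8% of that of Cdh5, both adhesion proteins of endothelial cells, and none of 14 endothelial markers tested passed between fractions (limma; none at an unadjusted p under 0.05 or with voom weights; median log2 fold change -0.74). In the summed pericyte and endothelial markers alike mutant RGC library 1 was the highest of all 9. So it was in the summed astrocyte (2408), red blood cell (319) and pigment epithelium (980) markers. The mast cell protease Cpa3 had 0, 0 and 1.03 in mutant non-RGC cells, 139.7, 4.67 and 96.4 in mutant RGCs and 2.95, 73.7 and 4.38 in WT RGCs, and was lower in non-RGC cells (log2 fold change -5.07, SE 1.18, adjusted p = 0.0277, limma). The 13 markers of monocytes and neutrophils in the tables summed to at most 103 in any library, and 1 of them, Csf3r, passed the filter. The part of these cell types in the genotype values was not tested.

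Further microglia and macrophage genes that are not members were mostly lower in non-RGC cells too. Of 42, 39 were tested between the fractions, and 28 were lower in non-RGC cells and none higher (median log2 fold change -3.14; 11 lower and none higher with voom weights, none higher at an unadjusted p under 0.05). The 3 with the smallest p were Rgs10, a regulator of G protein signalling that neurons also make, the organic anion transporter Slco2b1 and the adaptor Bin2. Between mutant RGCs and WT RGCs 1 of 41 passed, Rgs10, which had 187, 157 and 165 in mutant RGCs and 348, 367 and 323 in WT RGCs (log2 fold change -1.03, SE 0.12, adjusted p = 0.0221, limma). As in Coro1a, all 3 mutant RGC libraries of Rgs10 lay below all WT libraries.

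Along the CSF1 receptor pathway, 6 of 16 genes were lower in non-RGC cells, against 12.4% of all genes tested, and none was higher. Among the 6 were Csf2rb, a shared chain of cytokine receptors, and the lineage factor Spi1. Spi1 had 0.962, 0 and 4.11 in mutant non-RGC cells, 291, 42.9 and 44.8 in mutant RGCs and 122, 140.0 and 142 in WT RGCs normalised counts, and as in Csf1r all WT libraries lay between mutant RGC library 1 and the other mutant RGC libraries. The ligand Csf1 had 231, 255 and 179 in mutant non-RGC cells, 315, 207 and 216 in mutant RGCs and 144, 217 and 290.4 in WT RGCs and did not pass in either comparison (log2 fold change -0.14, SE 0.20, adjusted p = 0.686 between fractions, log2 fold change 0.21, SE 0.29, adjusted p = 0.608 between genotypes, limma). The other ligand, Il34, had 23 normalised counts or fewer in every library. Csf2ra (-0.97), the transcription factor Cebpb (-1.33) and the adaptor Grb2 (-0.27) were lower in mutant RGCs than in WT RGCs on the log2 scale (limma, adjusted p between 0.0234 and 0.032), 3 of 16 tested, near the 16.4% of all genes called lower.

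Among 11 other complement genes tested, 5 were lower in non-RGC cells, against 12.4% of all genes tested, and none was higher. The anaphylatoxin receptors C3ar1 and C5ar1 led these 5. C3ar1 had 5.77, 0.968 and 1.03 in mutant non-RGC cells, 274, 52.3 and 44.8 in mutant RGCs and 85.5, 126 and 147 in WT RGCs, and C5ar1 0, 2.91 and 0 in mutant non-RGC cells, 149, 27.1 and 26.3 in mutant RGCs and 27.5, 82.1 and 62.5 in WT RGCs. In both, as in Cx3cr1, mutant RGC library 1 was the highest of its group and library 3 the lowest. C3, the component that C1q activation cleaves, had 16.4, 12.6 and 18.5 in mutant non-RGC cells, 37.9, 42.9 and 43.8 in mutant RGCs and 104, 93.7 and 48.2 in WT RGCs and was lower in non-RGC cells (log2 fold change -1.35, SE 0.27, adjusted p = 0.0166, limma), but mutant RGC library 1 was the lowest of its group. Cd55, a complement inhibitor on cell surfaces, was the 1 of 13 that differed between genotypes, with 37.0, 47.6 and 50.6 in mutant RGCs and 100.2, 115 and 81.1 in WT RGCs (log2 fold change -1.11, SE 0.22, adjusted p = 0.0257, limma).

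Of 13 ligands on neurons and other cells for microglial receptors, 4 were lower in non-RGC cells, against 12.4% of all genes tested. These were Cx3cl1, the ligand of Cx3cr1, Cd200, which restrains macrophages, Cd47, a signal against engulfment, and Gas6, a ligand of Mertk. Cx3cl1 had 173, 195 and 175 in mutant non-RGC cells, 266, 421 and 413 in mutant RGCs and 795, 835 and 389 in WT RGCs normalised counts (log2 fold change -0.99, SE 0.19, adjusted p = 0.0155, limma). Cd200 had 436, 480.4 and 427 in mutant non-RGC cells, 771, 1159 and 1152 in mutant RGCs and 1832, 1877 and 1613 in WT RGCs, and was lower in non-RGC cells (log2 fold change -1.17, SE 0.16, adjusted p = 0.00759) and lower in mutant RGCs than in WT RGCs (log2 fold change -0.81, SE 0.17, adjusted p = 0.026, limma). For both ligands mutant RGC library 1 was the lowest of its group, where it was the highest for the 38 members. Gas6 was also lower in mutant RGCs (-0.70), while Tgfb2, Tgfb3, Pros1 and Mfge8 were higher. That was 4 of 13 higher and 2 lower, against 11.7% and 16.4% of all genes. Without mutant RGC library 1, 2 were higher and 3 lower, against 5.74% and 10.3%. Pros1, another ligand of Mertk, had 482, 463 and 443 in mutant non-RGC cells, 512, 442 and 448 in mutant RGCs and 192, 219 and 298 in WT RGCs (log2 fold change 1.00, SE 0.17, adjusted p = 0.0242, limma). None of the 4 higher ligands was called between fractions. Of 14 proliferation genes 13 were higher in mutant RGCs, and of 14 progenitor genes 4 (4 and 0 without mutant RGC library 1). The part of other cells in these values was not tested.

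Genes of engulfment and of the phagocytic state were mixed. Of 19 engulfment genes tested 6 were lower in non-RGC cells and none higher (1 at an unadjusted p under 0.05, none with voom weights), led by Elmo1, the immunoglobulin receptor Fcgr1 and Dock2; Fcgr1 had 1 read among the non-RGC libraries, against 142, 37.3 and 19.5 normalised counts in mutant RGCs. Between genotypes 6 of 20 were higher in mutant RGCs (Pros1, Mfge8, Itgav, Megf10, Gulp1 and Dock1) and 3 lower (Tyro3, Gas6 and Elmo1). Over all genes tested 11.7% were higher and 16.4% lower. Without mutant RGC library 1, 4 of 19 were higher and 3 lower, against 5.74% and 10.3% of all genes. Non-RGC cells kept between 89.9% (Itgav) and 127% (Gulp1) of the mutant RGC level of the 6 higher genes. Of 17 genes of the phagocytic state of developing or disease-associated microglia, 3 were lower in non-RGC cells, the chemokines Ccl3 and Ccl4 and the receptor Clec7a, and none of 18 differed between genotypes (limma; 1 at an unadjusted p under 0.05, none with voom weights). Of 6 other oxidase genes tested Rac2 and Ncf1 were lower in non-RGC cells, and Rac2, the leukocyte Rac protein, had 0, 0.968 and 0 in mutant non-RGC cells, 224, 54.1 and 39.9 in mutant RGCs and 48.2, 90.5 and 94.2 in WT RGCs. Of 22 lysosomal genes 5 were lower in non-RGC cells (3 with voom weights), Grn and Npc1 among them. Over all genes tested between fractions 12.4% were lower, and these list counts were not tested against that share.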

How the data were processed

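Poly(A) libraries were made from postnatal day 0 retinal fractions and sequenced single-end over 75 cycles, as the design text says. The submitters' processing notes name STAR 2.3, featureCounts, DESeq, FastQC and mm10, and no strand setting. The names of the deposited tables show duplicate removal, which for single reads caps counts of short abundant transcripts. Per the file headers, the 2 deposited tables hold the authors' mean normalised counts (signal) over all libraries and for conditions A and B, their fold change as a ratio, its log2 value, and the p-value and adjusted p-value. The mutant RGCs were identified as the condition present in both tables: A between fractions and B between genotypes shared 14765 genes at 0, with 0 mismatches.

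Each library's whole read counts were worked back from the deposited group means, each a sum of 3 counts divided by 3 times a size factor, within 1e-09 of a whole number and 10 times closer than the next solution. This solved between 99.97% and 100.0% of genes above 0, and mutant RGC counts from both tables were identical for 23953 genes. Ank2, Kif1b, Reln, Adcy1, Map1b and Dync1h1 had more than 1 solution and were left out of both comparisons and of the size factors. Counts were divided by median-of-ratios factors over the 9 libraries. A gene was fitted if its mean reached 10 across the 6 libraries compared, by limma 3.58.1 (R 4.3.3) with a variance trend on log2(value + 1), which understates changes of low genes, and calls were made at a Benjamini-Hochberg adjusted p below 0.05. On simulated counts for the comparison of genotypes, with 15052 genes tested, 64 of 67 genes changed 2-fold were called, with 6 false calls. The simulation gave all genes the same spread, the median of the WT RGC libraries, with no outlying library. It therefore does not give the power for the members, whose median SE between genotypes was 0.55, against 0.14 over all genes tested. Fold intervals are exact counting intervals at 95%, cover counting error only, and the floor is 3 reads over the non-RGC group. Alternatives were other scalings, filters, pseudocounts, voom weights, 1 fit over 9 libraries and leaving out each library.

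The members and the 20 marker lists (289 genes, 285 in the tables, 20 in more than 1 list) were chosen with earlier results of these data known. All members are named; of the lists, up to 3 genes with the smallest p between fractions and, where there are at most 3, those called between genotypes are named, and other list genes in the text were chosen after their values were seen; some list genes are not reported here. Coordinates and promoters are from RefSeq on GRCm38.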

Additional observations from a re-analysis of the deposited data

How the results depend on the processing

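The count of members lower in mutant non-RGC cells than in mutant RGCs was between 32 and 34 under the other scalings, both pseudocounts, no filter and 1 fit over 9 libraries. It was 26 of 29 with a minimum mean of 50, and 13 with voom weights, where 19.9% and 15.3% of all genes were called. The median log2 fold change was -5.24 with a minimum of 50 and -3.55 with a pseudocount of 5. Leaving out each library gave between 20 and 31 members called, medians between -5.21 and -4.47, and between 517 and 3345 genes called over all genes. For Cd68 the log2 fold change ranged from -0.53 to 0.41, positive without mutant RGC library 1.

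Between mutant RGCs and WT RGCs, 1 member was called under all other settings that keep the 6 libraries. Leaving out each library gave between 0 and 13 members called, medians between -0.91 and 0.13, and between 3 and 6783 genes called over all genes. Over the same settings the log2 fold change ranged from -0.71 to 0.051 for C1qa, -1.03 to 0.23 for Cx3cr1, -0.17 to 0.42 for Cyba, -0.58 to 0.38 for Fcgr3, -0.61 to 0.42 for Inpp5d, -0.39 to 0.32 for Mertk, -0.48 to 0.32 for Olfml3, -1.09 to 0.22 for P2ry12, -1.19 to 0.14 for Ptprc, -0.71 to 0.21 for Sall1 and -0.92 to 0.094 for Unc93b1. The cause was not tested. Calls over all genes were 1794 higher and 2507 lower, 2092 and 1879 with the size factors of the deposited table, and 2400 and 1904 with total-count scaling; between fractions they were 809 higher and 1876 lower, and 1433 and 1598 with total-count scaling. No paired analysis was possible because the recovered libraries carry no sample numbers. With 10 of 38 members at 3 reads or fewer in non-RGC cells, depth limits how low their levels there can be placed.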
